A study of Mus musculus with 24 samples.

Results

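The pyruvate dehydrogenase complex and the kinases that switch it off were followed through the aortas of mice with and without renal failure. Their 9 genes were taken by name from a deposited table of 32561 genes. Pdha1, Pdhb, Dlat, Dld and Pdhx encode the 5 subunits, and Pdk1, Pdk2, Pdk3 and Pdk4 encode the 4 kinases. All 9 passed the filter on low values and belonged to the 21248 genes tested. The set was chosen by gene name and known function, with earlier Kl/Kl-against-control values of the same libraries in view. The Kl/Kl comparisons below therefore describe these genes and lend no independent support to any pattern among them.

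RNA was measured in 24 aortas, 4 in each of 6 groups, from mice 44 to 53 days old. Kl/Kl mice are homozygous for a recessive Klotho mutation and had renal failure, and their controls were Klotho +/+ or +/Kl with healthy kidneys. Kl/Kl and control aortas were compared in males homozygous for a mutated Bmp2 allele (Bmp2 ∆UCS/∆UCS), in Bmp2+/+ males and in Bmp2+/+ females, and ∆UCS females were not analysed here. Both mutations had been bred onto the 129S1/SvlmJ background, so strain was shared by every group. Kl/Kl mice are described as smaller and weaker and were offered softened food, and neither feeding state nor time of day at dissection is given in the sources used here. Aortas were flash frozen, and polyA RNA was sequenced from directional libraries.

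The complex sits in the mitochondrial matrix and turns pyruvate, the end product of glycolysis, into acetyl-CoA for the citric acid cycle and for fatty acid synthesis. Its decarboxylase, built from the Pdha1 and Pdhb proteins, is switched off when a pyruvate dehydrogenase kinase phosphorylates the Pdha1 protein, and phosphatases switch it on again. Tissues that burn fat, such as heart and fasted muscle, raise Pdk4 and so spare glucose, while brown adipocytes, which surround the mouse thoracic aorta, are rich in mitochondria.

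Estimated depth was 20589639 to 61096293 reads per library, and mitochondrial transcripts took 40.2% to 61.2% of the deposited total. Values are TPM rescaled between libraries on nuclear genes (scaled TPM). TPM here is per base of genomic span, introns included, so it compares a gene between libraries and not one gene with another. Of the 24 libraries, 22 matched their labelled sex by Xist and Ddx3y. The library labelled Bmp2+/+ male Kl/Kl replicate 1 had 11.4 deposited TPM of Xist and 0.0138 of Ddx3y, and the one labelled Bmp2+/+ female Kl/Kl replicate 2 had 0.0281 and 4.81. Spp1, the osteopontin gene, was at 0.477 and 0.340 scaled TPM in these libraries, against 47.2 to 274.7 in the other Kl/Kl libraries and 0.222 to 6.63 in controls. Both were left out of the values below unless named, and each comparison is given again with all 24. The smooth muscle genes Acta2 (28.1 to 314 scaled TPM) and Myh11 (2.68 to 17.9) were detected in every library. Kl itself was at or below 0.0176 scaled TPM throughout, too low to check the Klotho labels, and Bmp2 was at 0.249 to 0.836 in ∆UCS and 0.221 to 0.605 in Bmp2+/+ aortas.

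All 5 subunits averaged lower in Kl/Kl than in control aortas in each of the 3 comparisons, but Dlat in females was the single member whose change passed the test. Dlat encodes the acetyltransferase that forms the core of the complex and carries its lipoyl arms (ENSMUSG00000000168, mm39 chr9:50545933-50571081, minus strand). In females, Dlat was at 4.36, 4.47 and 7.96 scaled TPM in the Kl/Kl aortas, against 9.24, 22.4, 21.5 and 15.7 in the controls. Every Kl/Kl aorta lay below every control. Dlat fell in female Kl/Kl aortas by 1.58 on the log2 scale (95% confidence interval -2.43 to -0.73, adjusted p = 0.0438 by limma with Benjamini-Hochberg adjustment over all genes tested). Bulk tissue was sequenced, so fewer cells of a type and less RNA per cell cannot be told apart. With all 24 libraries as labelled, the log2 change was -1.17 and the adjusted p 0.348, and the library left out held 17.2 scaled TPM. Under the deposited scaling the log2 change was -1.08 (adjusted p = 0.0886). The call was also lost without Kl/Kl replicate 1 (adjusted p = 0.124) or 3 (0.185), and without control replicate 2 (0.148), 3 (0.139) or 4 (0.0919), with log2 changes of -1.60 to -1.43. Since all groups share 1 estimate of the spread, it was lost as well in 8 of 15 fits that left out a library of another group, with adjusted p-values of 0.0178 to 0.0595 over the 15.

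In ∆UCS males, Dlat was at 4.30, 6.64, 7.12 and 13.9 scaled TPM in Kl/Kl aortas and at 21.3, 18.2, 19.4 and 14.1 in controls. The groups did not overlap, although the highest Kl/Kl aorta, replicate 4, stood just under the lowest control. The log2 change was -1.29 (95% confidence interval -2.08 to -0.51, adjusted p = 0.122). In Bmp2+/+ males, Dlat was at 7.11, 7.62 and 3.26 scaled TPM in Kl/Kl aortas and at 10.5, 18.1, 9.22 and 16.0 in controls. These groups were also apart, with a log2 change of -1.19 (95% confidence interval -2.05 to -0.32, adjusted p = 0.21). The male Kl/Kl library left out held 16.2 scaled TPM, inside the control range, and with it the log2 change was -0.81 (adjusted p = 0.714).

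Pdha1 and Pdhb encode the alpha and beta chains of the decarboxylase, and the alpha chain holds the serines that the kinases phosphorylate. Pdha1 (ENSMUSG00000031299, mm39 chrX:158905205-158921410, minus strand) was at 22.9, 33.3, 37.8 and 59.6 scaled TPM in ∆UCS Kl/Kl aortas and at 106, 90.35, 104 and 65.3 in ∆UCS controls. The groups did not overlap, and the log2 change was -1.31 (95% confidence interval -2.15 to -0.47, adjusted p = 0.143). In females, Pdha1 was at 25.4, 39.0 and 87.2 scaled TPM in Kl/Kl aortas and at 101, 98.2, 110.0 and 95.1 in controls. The 4 female controls averaged 101.1 ± 6.41 (SD). The Kl/Kl aortas spread over a wide range below them, with the highest at 87.2 and the lowest at 25.4. The female log2 change was -1.19 (adjusted p = 0.154). In Bmp2+/+ males the Kl/Kl aortas, at 49.2, 87.5 and 26.2 scaled TPM, reached both below and above the controls, at 52.8, 83.9, 39.7 and 86.6, and the log2 change was -0.37 (adjusted p = 0.743).

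Pdhb (ENSMUSG00000021748, mm39 chr14:14296748-14303778, plus strand) varied most among the subunits, over an 8.95-fold range across libraries. It was at 15.9, 20.4, 29.0 and 92.0 scaled TPM in ∆UCS Kl/Kl aortas, against 97.4, 78.9, 127 and 50.8 in ∆UCS controls. Replicate 4 of the Kl/Kl group stood among the controls and the other 3 stood below all of them. The log2 change was -1.46 (95% confidence interval -2.63 to -0.29, adjusted p = 0.236). In females, Pdhb averaged 40.2 ± 37.4 scaled TPM in Kl/Kl aortas (SD, n = 3) and 82.5 ± 19.1 in controls (SD, n = 4), with a log2 change of -1.42 (adjusted p = 0.229). In Bmp2+/+ males it averaged 29.8 ± 11.8 scaled TPM in Kl/Kl aortas (SD, n = 3) and 61.4 ± 31.1 in controls (SD, n = 4), with a log2 change of -0.91 (adjusted p = 0.554).

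Dld encodes the flavoprotein that reoxidises the lipoyl arms and is shared with the other 2-oxoacid dehydrogenases, and Pdhx encodes the protein that binds it to the Dlat core. Dld (ENSMUSG00000020664, mm39 chr12:31381276-31401453, minus strand) averaged 16.8 ± 7.02 scaled TPM in ∆UCS Kl/Kl aortas and 33.3 ± 5.59 in ∆UCS controls (SD, n = 4 each), without overlap, and the log2 change was -1.07 (adjusted p = 0.206). In females it was at 10.4, 13.6 and 29.6 scaled TPM in Kl/Kl aortas and at 37.9, 36.1, 36.6 and 33.1 in controls, again without overlap, and the log2 change was -1.15 (adjusted p = 0.147). Pdhx (ENSMUSG00000010914, mm39 chr2:102851420-102903859, minus strand) was at 0.641, 0.991 and 2.00 scaled TPM in female Kl/Kl aortas and at 2.06, 2.59, 2.51 and 2.16 in female controls. Its log2 change was -1.02 in females (adjusted p = 0.17) and -1.02 in ∆UCS males (adjusted p = 0.2). In Bmp2+/+ males the groups overlapped for both genes, with log2 changes of -0.52 for Dld and -0.61 for Pdhx (adjusted p = 0.619 and 0.538).

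**Figure D1:**
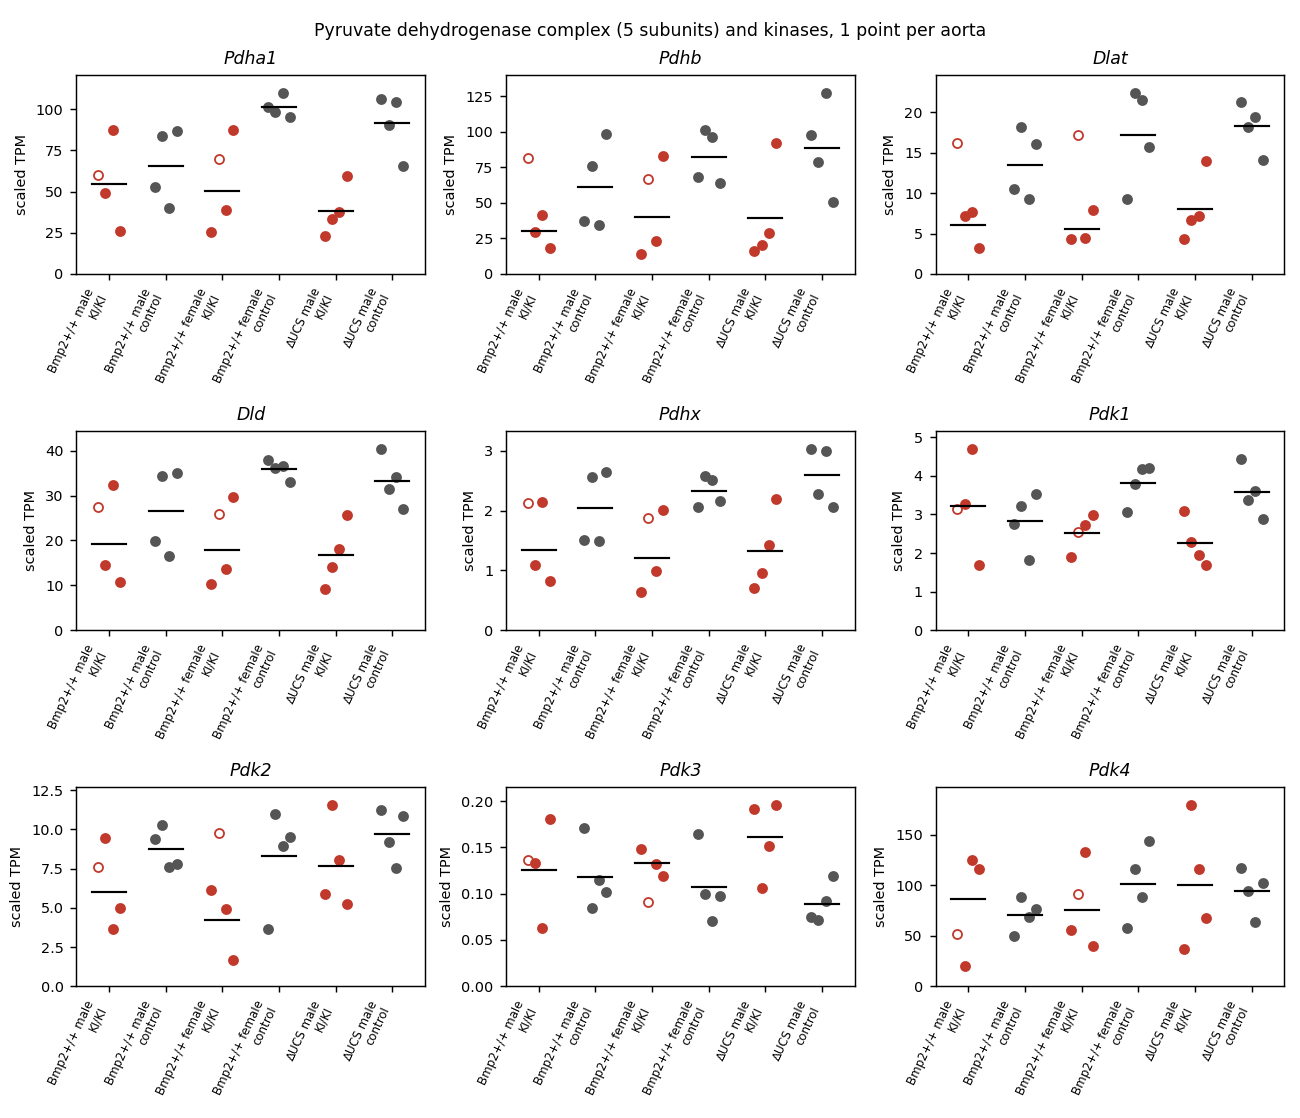
Scaled TPM of each of the 9 genes in every aorta, with Kl/Kl (red) left of its control (grey) in Bmp2+/+ males, Bmp2+/+ females and ∆UCS males; open circles are the libraries whose sex genes go against the label, and bars are means of the filled points. Subunit points of Kl/Kl aortas sit mostly below those of their controls, such as Dlat at 4.30 to 13.9 against 14.1 to 21.3 in ∆UCS males, while those of Pdk2 and Pdk4 overlap with their controls.

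The plot of values by aorta shows the male open circle within its control range for all 5 subunits, and the female one within it for Pdhb and Dlat and below it for Pdha1, Dld and Pdhx. Replicate 4 of the ∆UCS Kl/Kl aortas was the highest of its group for all 5 subunits. Counted over the members, 1 of 9 was called in females, 0 in Bmp2+/+ males and 0 in ∆UCS males at an adjusted p under 0.05, where 2.77%, 1.27% and 0.852% of all genes tested were called in either direction. The share called lower among all genes in females was 0.772%. At an unadjusted p under 0.05, 5 of 5 subunits were lower in females, 1 of 5 in Bmp2+/+ males (Dlat) and 5 of 5 in ∆UCS males, where 8.5%, 5.89% and 5.68% of all genes were. The shares of all genes with a log2 change below 0 were 48.7%, 53.9% and 40.9%, and all 5 subunits were below 0 in each comparison. With group means removed, pairs of subunits had a Pearson's r of 0.78 to 0.97 over the same aortas. Counts over the 5 subunits are therefore not counts of independent observations. Members whose Kl/Kl values all lay below all control values were Pdha1, Dlat, Dld, Pdhx and Pdk1 in females, Dlat in Bmp2+/+ males, and Pdha1, Dlat and Dld in ∆UCS males, where 6.87%, 4.02% and 4.28% of all genes did so. No member lay wholly above its controls.

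With all 24 libraries as labelled, members without overlap were Pdha1, Dld, Pdhx and Pdk1 in females (3.11% of all genes), none in Bmp2+/+ males (1.36%) and the same 3 in ∆UCS males (4.28%). Unadjusted p-values under 0.05 were then found for 4 of 5 subunits in females (6.61% of all genes lower), 0 of 5 in Bmp2+/+ males (3.37%) and 5 of 5 in ∆UCS males (5.41%). No member was called, and neither was any gene in females or in Bmp2+/+ males (0% each), while 0.0187% of genes were called in ∆UCS males. At an unadjusted p under 0.05, 2476 genes in females and 1642 in Bmp2+/+ males were counted in that fit. Under the deposited scaling 0 of 9 members were called in each comparison, against 2.45%, 0.701% and 0.527% of all genes in females, Bmp2+/+ males and ∆UCS males. The subunits with an unadjusted p under 0.05 were again 5, 1 and 5 of 5, against 1.38%, 2.14% and 1.99% of all genes lower. With both changes together they were 2, 0 and 5 of 5, against 1.32%, 1.09% and 1.87%, and no gene was called in any of the 3 comparisons (0%).

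**Figure D2:**
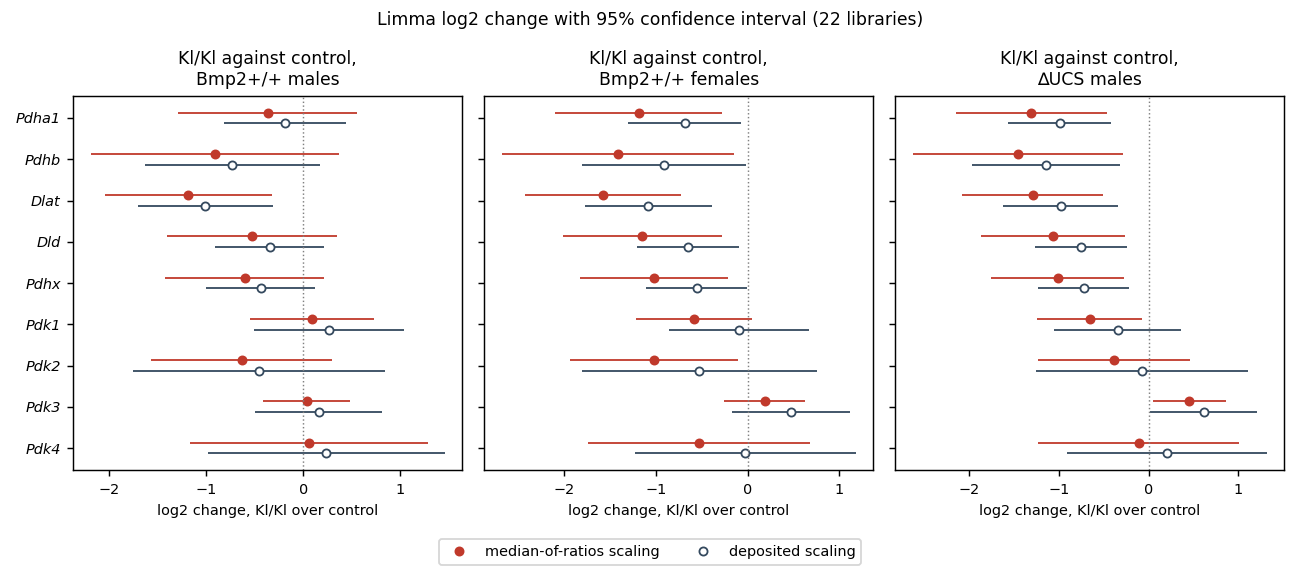
Log2 change (Kl/Kl over control) of each gene in Bmp2+/+ males, Bmp2+/+ females and ∆UCS males, with 95% confidence intervals from limma; filled red points use scaling on nuclear genes and open points the deposited scaling. The 5 subunits lie below 0 in all panels under both scalings, between -1.58 (Dlat, females) and -0.19 (Pdha1, Bmp2+/+ males, deposited scaling), and the intervals of Pdk4 span 0.

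The plot of log2 changes shows both scalings, because the choice moved all genes together. The median log2 change of all genes tested was 0.01 in females, -0.04 in Bmp2+/+ males and 0.08 in ∆UCS males on nuclear scaling, and 0.40, 0.10 and 0.34 under the deposited scaling. Relative to that median, the 5 subunits lay between -1.59 and -1.03 in females, between -1.14 and -0.33 in Bmp2+/+ males and between -1.54 and -1.10 in ∆UCS males on nuclear scaling. Under the deposited scaling the same ranges were -1.49 to -0.96, -1.11 to -0.29 and -1.48 to -1.06. The mitochondrial share of the total was 44.9% to 54.8% in female Kl/Kl aortas against 52.2% to 60.0% in controls. It was 40.2% to 55.8% against 47.3% to 58.6% in Bmp2+/+ males, and 40.9% to 52.5% against 53.5% to 61.2% in ∆UCS males. The part of that share in the subunit values was not tested.

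The Bmp2+/+ male values depended on the library set, which the spelling of the library names splits in 2. Within set 1, with 2 Kl/Kl and 2 control aortas, the log2 change was 0.52 for Pdha1, -0.02 for Pdhb, -0.41 for Dlat, 0.26 for Dld and 0.03 for Pdhx. Within set 2, with Kl/Kl replicate 4 alone against 2 controls, it was -1.70, -2.24, -2.35, -1.70 and -1.56. In set 1 Dlat was at 7.11 and 7.62 scaled TPM in the Kl/Kl aortas and 10.5 and 9.22 in the controls. With 2 aortas against 2 such a separation is weak, and the share of all genes so separated in set 1 is not given. Pdha1, Dld and Pdhx had a log2 change above 0 there and Pdhb one near 0, so for these 4 the lower values in Bmp2+/+ males did not hold in set 1 and rest on 1 Kl/Kl aorta in set 2. All female libraries were in set 2 and all ∆UCS libraries in set 1, so those comparisons were each made within 1 set.

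None of the 4 kinases was called in any comparison, and they did not share a direction. In females 3 of 4 had a log2 change below 0, in Bmp2+/+ males 1 and in ∆UCS males 3. Of all genes 48.7%, 53.9% and 40.9% did. At an unadjusted p under 0.05 by limma, 1 of 4 was lower in females, 0 in Bmp2+/+ males and 1 in ∆UCS males. Of all genes 8.5%, 5.89% and 5.68% were. In ∆UCS males 1 kinase was higher at that p, as were 1894 of 21248 genes. Pdk4, the isoform raised by fasting and by fatty acids (ENSMUSG00000019577, mm39 chr6:5483351-5496310, minus strand), had the widest range of the members, 9.06-fold across libraries. It was at 37.3, 179, 116 and 67.4 scaled TPM in ∆UCS Kl/Kl aortas and at 117, 94.0, 63.7 and 102 in ∆UCS controls. In females it was at 55.4, 133 and 40.0 in Kl/Kl aortas and at 57.5, 116, 88.6 and 144 in controls. The lowest and the highest aorta of the ∆UCS males were both Kl/Kl, and Kl/Kl and control values overlapped in both comparisons. In Bmp2+/+ males Pdk4 averaged 86.9 ± 58.3 scaled TPM in Kl/Kl aortas (SD, n = 3) and 70.9 ± 16.4 in controls (SD, n = 4). The log2 changes of Pdk4 were -0.11 in ∆UCS males (95% confidence interval -1.23 to 1.01), -0.53 in females (-1.74 to 0.68) and 0.06 in Bmp2+/+ males (-1.17 to 1.29). Intervals this wide leave the direction of Pdk4 undetermined in all 3 comparisons.

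Pdk1 (ENSMUSG00000006494, mm39 chr2:71703568-71734203, plus strand), a kinase that hypoxia induces, was at 1.89, 2.71 and 2.99 scaled TPM in female Kl/Kl aortas and at 3.06, 3.79, 4.18 and 4.20 in female controls. The groups did not overlap, and the log2 change was -0.59 (adjusted p = 0.33). It was -0.66 in ∆UCS males (adjusted p = 0.283) and 0.09 in Bmp2+/+ males (adjusted p = 0.919). Pdk2 (ENSMUSG00000038967, mm39 chr11:94917084-94932181, minus strand), the most widely expressed isoform, averaged 4.25 ± 2.32 scaled TPM in female Kl/Kl aortas (SD, n = 3) and 8.28 ± 3.21 in female controls (SD, n = 4). Its log2 change was -1.02 in females (adjusted p = 0.23), -0.39 in ∆UCS males (adjusted p = 0.692) and -0.64 in Bmp2+/+ males (adjusted p = 0.566). Female Kl/Kl replicate 4 had the lowest Pdk2 of all libraries, 1.66 scaled TPM, and the female control replicate 1 had 3.65, so the female groups overlapped.

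Pdk3 (ENSMUSG00000035232, mm39 chrX:92808213-92875808, minus strand), an isoform known from brain and testis, was the least abundant member, with 86 to 775 estimated reads per library. It was at 0.191, 0.106, 0.151 and 0.196 scaled TPM in ∆UCS Kl/Kl aortas and at 0.0745, 0.0715, 0.0918 and 0.119 in ∆UCS controls. Replicate 2 of the Kl/Kl group stood below the highest control and the other 3 above all of them. The log2 change was 0.46 (95% confidence interval 0.05 to 0.87, adjusted p = 0.287), on a scale with a pseudocount of 0.1 that shrinks the change of a gene this low. In females it was 0.19 (adjusted p = 0.692) and in Bmp2+/+ males 0.03 (adjusted p = 0.958).

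The median log2 change of the 4 kinases was -0.56 in females, 0.05 in Bmp2+/+ males and -0.25 in ∆UCS males on nuclear scaling, and -0.06, 0.20 and 0.07 under the deposited scaling, which turned the sign in ∆UCS males. A ratio between genes of the same aorta does not depend on the scaling, and the log2 ratio of each kinase to the geometric mean of the 5 subunits was therefore computed, with its mean over all controls set to 0. The Pdk3 ratio averaged 1.72 ± 0.75 in ∆UCS Kl/Kl aortas and -0.37 ± 0.60 in ∆UCS controls (SD, n = 4 each). The lowest Kl/Kl ratio was 1.08 and the highest control ratio 0.51, so the groups did not overlap. In females the Pdk3 ratio averaged 1.54 ± 1.01 in Kl/Kl aortas (SD, n = 3) and -0.12 ± 0.69 in controls (SD, n = 4), with overlap. In Bmp2+/+ males it averaged 1.26 ± 1.48 in Kl/Kl aortas (SD, n = 3) and 0.49 ± 0.90 in controls (SD, n = 4), also with overlap. The Pdk4 ratio averaged 1.09 ± 1.12 in ∆UCS Kl/Kl aortas and -0.05 ± 0.56 in controls (SD, n = 4 each), with overlap. It overlapped as well in females (0.79 ± 1.51 against 0.03 ± 0.54) and in Bmp2+/+ males (0.70 ± 1.64 against 0.02 ± 0.39). In Bmp2+/+ males the Pdk1 ratio averaged 0.90 ± 0.12 in Kl/Kl aortas (SD, n = 3) and 0.04 ± 0.26 in controls (SD, n = 4), without overlap. In females the Pdk1 ratio averaged 0.72 ± 0.59 in Kl/Kl aortas (SD, n = 3) and 0.04 ± 0.20 in controls (SD, n = 4), with overlap. In ∆UCS males it averaged 0.49 ± 1.09 in Kl/Kl aortas and -0.07 ± 0.15 in controls (SD, n = 4 each), and the Kl/Kl ratios, from -0.85 to 1.77, reached both below and above the control ratios, from -0.28 to 0.06. The Pdk2 ratio overlapped between Kl/Kl aortas and controls in all 3 comparisons, with means of -0.08 ± 1.87 against -0.32 ± 0.59 in females, 0.44 ± 1.15 against 0.33 ± 0.53 in Bmp2+/+ males and 0.85 ± 1.03 against -0.0045 ± 0.49 in ∆UCS males. A ratio shows that the genes differed unequally, and not which of them changed. The subunits averaged lower in Kl/Kl aortas, so a gene without any change would also have a higher ratio there. The share of all genes whose ratio to the subunits did not overlap is not given, so the separations above are not results about the kinases.

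The ∆UCS allele was compared with Bmp2+/+ in males of equal Klotho status, with group means taken in the fit that holds the library set. No member was called in control or in Kl/Kl males, and neither was any of all genes tested (0% each by limma, and 0 by voom on estimated reads). At an unadjusted p under 0.05, 979 genes in controls and 687 in Kl/Kl males were counted by limma, and 1358 and 641 by voom. In controls, the log2 difference of ∆UCS from Bmp2+/+ was 0.53 for Pdha1, 0.79 for Pdhb, 0.48 for Dlat, 0.47 for Dld and 0.42 for Pdhx. Among the kinases it was 0.29 for Pdk1, 0.12 for Pdk2, -0.19 for Pdk3 and 0.80 for Pdk4 (95% confidence interval -0.48 to 2.08). Pdha1 averaged 91.5 ± 18.8 scaled TPM in ∆UCS controls and 65.7 ± 23.1 in Bmp2+/+ controls (SD, n = 4 each), and every member's groups overlapped. In Kl/Kl males the log2 differences ran between -0.46 (Pdk1) and 0.63 (Pdk4), with that of Pdha1 at -0.41 and that of Dlat at 0.38.

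Within library set 1, which holds all ∆UCS aortas and 2 Bmp2+/+ aortas of each kind, the control difference was 0.97 for Pdha1 (adjusted p = 0.843), and the Kl/Kl difference was -0.86 (adjusted p = 0.926). The Klotho effect was also compared between strata. The ∆UCS male effect minus the Bmp2+/+ male effect was -0.94 for Pdha1 (95% confidence interval -2.19 to 0.31, adjusted p = 0.704) and -0.75 for Pdk1 (-1.62 to 0.12, adjusted p = 0.695). The female effect minus the Bmp2+/+ male effect was -0.82 for Pdha1 (-2.12 to 0.48) and -0.39 for Dlat (-1.60 to 0.82). No member was called in either, and 0% of all genes were, with 1475 and 674 genes at an unadjusted p under 0.05 by limma and 1844 and 612 by voom. The Klotho comparisons of the 3 strata were therefore not shown to differ for any member.

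Apart from group differences, the 5 subunits went up and down together from aorta to aorta, whereas the kinases followed them less closely and in differing directions. After removal of the group means, Pearson's r over 22 libraries was 0.78 to 0.97 among the 10 pairs of subunits (median 0.90). It was -0.55 to 0.56 among the 20 pairs of a subunit with a kinase (median -0.05) and -0.60 to 0.22 among the 6 pairs of kinases (median -0.11). The median of the 20 pairs joins kinases of opposite sign. With the 5 subunits, r was 0.33 to 0.56 for Pdk1, -0.55 to -0.31 for Pdk3 and -0.10 to 0.12 for Pdk4. For Pdk2 it was 0.03 with Dlat and -0.44 to -0.42 with the other subunits. These libraries share depth and tissue make-up, so the coefficients are descriptions.

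**Figure D3:**
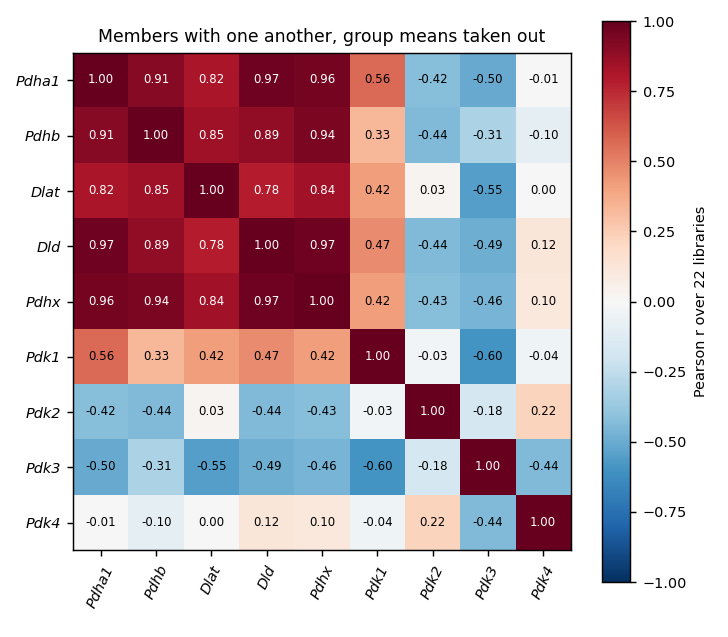
Pearson's r between the 9 genes over 22 aortas, on log2(scaled TPM + 0.1) with group means removed; colour gives r on a scale of -1 to 1. The block of 5 subunits holds r of 0.78 to 0.97, and the kinase rows hold values on both sides of 0.

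The heat map of correlations shows the subunits as 1 block. The 3 genes nearest to each member by the same r were sought among 5704 genes. Dld was nearest to Uqcrc2, a core protein of respiratory complex III (r = 0.99), to the fumarase gene Fh1 (0.99) and to the acetyl-CoA acetyltransferase gene Acat1 (0.98). Pdhx was nearest to Uqcrc2 (0.98), to the import motor gene Timm44 (0.97) and to the matrix peptidase gene Pmpcb (0.97). Pdha1 was nearest to Ptgr2 (0.98), Uqcrc2 (0.98) and Dld (0.97). Dlat was nearest to Sod2, the mitochondrial superoxide dismutase (0.93), Atpaf2 (0.92) and Nudt13 (0.92), and Pdhb to the lactate dehydrogenase gene Ldha (0.97), Sycp3 (0.95) and Thrsp (0.95). Of the kinases, Pdk4 was nearest to Pck1, which drives glycerol and glucose synthesis (0.93), to the peroxisomal Ehhadh (0.88) and to Rgcc (0.82). Pdk2 was nearest to the triglyceride lipase gene Pnpla2 (0.97), Slc25a22 (0.96) and Miga2 (0.95). Pdk1 was nearest to Mapk9 (0.88), Fn3krp (0.86) and Ppp3cb (0.85), and Pdk3, over 5705 genes, to Pdlim2 (0.88), Jpt1 (0.85) and Aimp2 (0.85).

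Markers of brown adipocytes moved with the subunits, with exceptions. The summed scaled TPM of 7 of them (Ucp1, Cidea, Cox8b, Cox7a1, Elovl3, Dio2 and Otop1) was 164 to 624 in female Kl/Kl aortas against 765 to 1023 in controls. It was 221 to 690.4 against 625 to 1319 in Bmp2+/+ males. In ∆UCS males it was 233, 369.7, 339.7 and 1812 in Kl/Kl aortas, against 834 to 1212 in controls, and the aorta at 1812 was replicate 4, which also held the highest subunit values of its group. Although its sum was above every ∆UCS control, its Pdha1 (59.6 scaled TPM), Dlat (13.9) and Dld (25.8) were below every ∆UCS control. The lowest of those controls were 65.3, 14.1 and 27.0, and its Pdhb and Pdhx were within the control range. The same aorta had the highest smooth muscle sum (829.5) and the highest cardiomyocyte sum (3791) of all 24 libraries. Bmp2+/+ male control replicate 3 had a sum of 1129 and the lowest value of its group for each subunit, such as 39.7 for Pdha1. None of the 7 markers was near 0 in all libraries of a group. Of the 7, 1 was called lower in females, 1 in Bmp2+/+ males and 0 in ∆UCS males, with median log2 changes of -2.18, -1.44 and -1.14. The libraries left out had sums of 782 (male) and 749 (female), within or just under their control ranges.

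With group means removed, the log2 brown adipocyte sum followed the subunits over 22 libraries, in a family of 9 relations tested by permutation within groups. Pearson's r was 0.88 for Pdhx (permutation p = 5e-05, adjusted p = 0.000225), with Spearman's rho at 0.82 (permutation p = 0.00025), and 0.85 without the 2 aortas farthest from the median sum. It was 0.87 for Pdhb (rho 0.79, r of 0.77 without those 2), 0.82 for Dld (rho 0.77, r of 0.80), 0.81 for Pdha1 (rho 0.77, r of 0.78) and 0.77 for Dlat (rho 0.72, r of 0.67), with adjusted permutation p-values of 0.000225 to 0.000954. Within set 1 (12 libraries) r was 0.76 to 0.85 and within set 2 (10 libraries) 0.76 to 0.98 over the 5 subunits. None of the kinases had an adjusted permutation p under 0.05, and their r moved between sets. For Pdk4 r was 0.09 (adjusted permutation p = 0.797, rho 0.07), with 0.25 in set 1, -0.30 in set 2 and 0.37 without the 2 farthest aortas. For Pdk1 it was 0.19 (0.583, rho 0.32), with -0.16 in set 1, 0.80 in set 2 and 0.43 without those 2. For Pdk3 it was -0.34 (0.253, rho -0.49), with -0.22, -0.59 and -0.67, and for Pdk2 -0.45 (0.174, rho -0.36), with -0.50, -0.46 and -0.23. Neither the sums of other markers nor the share of all genes with such an r were set beside these values. The relation is therefore not shown to be particular to brown adipocytes or to the subunits. The part of brown adipocyte content in the Kl/Kl differences of the subunits was not tested.

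**Figure D4:**
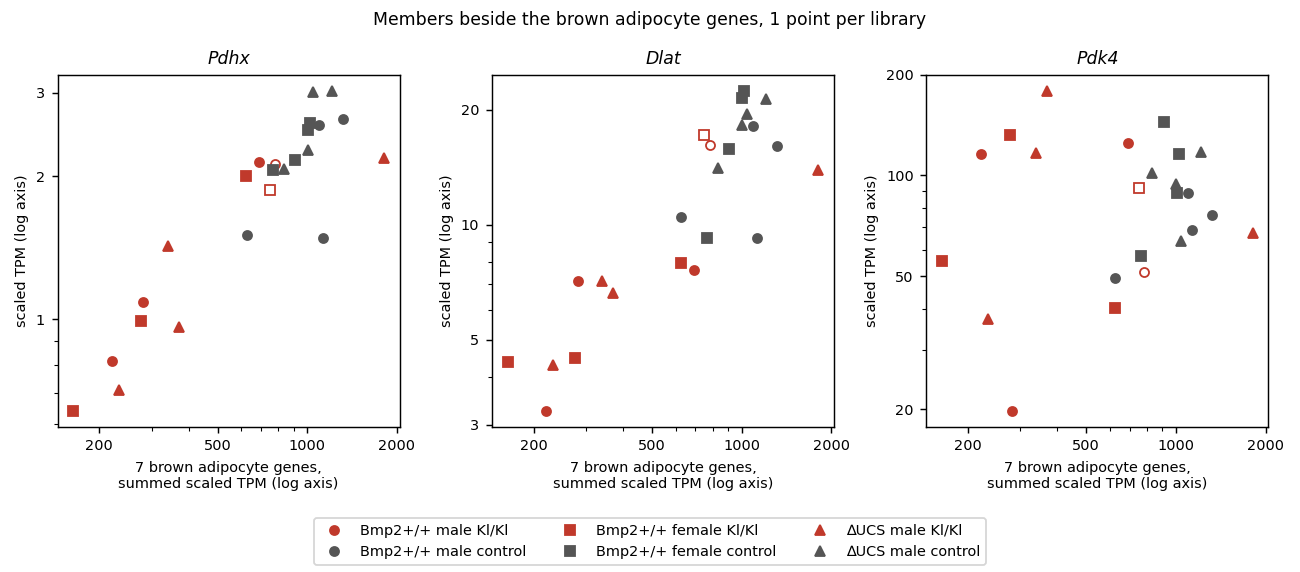
Scaled TPM of Pdhx, Dlat and Pdk4 (vertical, log axis) against the summed scaled TPM of 7 brown adipocyte markers (horizontal, log axis), 1 point per aorta, Kl/Kl in red and controls in grey, circles for Bmp2+/+ males, squares for Bmp2+/+ females, triangles for ∆UCS males and open points for the libraries left out. Pdhx and Dlat rise with the marker sum, with r of 0.88 and 0.77 after removal of group means, while r for Pdk4 is 0.09, or 0.37 without the 2 aortas farthest from the median sum.

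The plot against the marker sum also shows that the Kl/Kl aortas with the lowest sums had the lowest Pdhx. Of 7 general adipocyte markers, 0 were called in any comparison, and their sum was 822 to 1712 in female Kl/Kl aortas against 1609 to 2054 in controls. It was 912 to 2136 against 984 to 1873 in Bmp2+/+ males, and 619 to 1998 against 1407 to 2110.2 in ∆UCS males. Of 8 macrophage markers, 8 were called higher in females, 7 in Bmp2+/+ males and 6 in ∆UCS males. Their sum was 451 to 754 in female Kl/Kl aortas against 48.7 to 92.6 in controls, 431 to 546 against 35.8 to 179.5 in Bmp2+/+ males, and 246 to 343 against 38.8 to 93.9 in ∆UCS males, while the libraries left out had 119.7 (male) and 47.7 (female). Of 5 airway markers, Scgb3a1 was called higher in females and in ∆UCS males. Of the markers of smooth muscle, cardiomyocytes, skeletal muscle, endothelium, fibroblasts, Schwann cells and B and T cells, 0 were called. The sum of 7 smooth muscle markers was 180 to 260 in female Kl/Kl aortas against 207 to 341 in controls, 156 to 539 against 151 to 285 in Bmp2+/+ males, and 124 to 829.5 against 353 to 492 in ∆UCS males. The sum of 8 cardiomyocyte markers was 259.8 to 3337 in female Kl/Kl aortas against 239 to 423 in controls, 203 to 2389 against 274 to 1111 in Bmp2+/+ males, and 57.4 to 3791 against 42.1 to 856 in ∆UCS males. Female Kl/Kl sums were higher without overlap for airway (2161 to 2669 against 341 to 1610) and fibroblasts (78.997 to 88.64 against 47.999 to 69.4). They were lower without overlap for skeletal muscle (74.4 to 106.9 against 169.9 to 536.5) and Schwann cells (4.76 to 8.76 against 11.3 to 12.5). ∆UCS Kl/Kl sums were lower without overlap for Schwann cells (3.81 to 8.52 against 11.5 to 13.8) and endothelium (up to 8.999 against 9.74 upwards). Those lists overlapped in every other comparison. None of these lists had a marker at 0 in a whole group, and their part in the subunit values was not tested.

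Genes that feed the complex, supply its cofactor or take its product had median log2 changes below 0 in all 3 comparisons under both scalings, with few calls. Of 14 citric acid cycle genes, none was called in any comparison, and the median log2 change was -0.91 in females, -0.54 in Bmp2+/+ males and -0.999 in ∆UCS males. In females and in ∆UCS males all 14 had a log2 change below 0 and an unadjusted p under 0.05, and in Bmp2+/+ males 13 were below 0 and 3 passed that p. The 2-oxoacid dehydrogenases are built like the pyruvate complex and share its Dld subunit. Of 9 such genes tested, 3 were called lower in females. These were Ogdh (log2 change -1.53, adjusted p = 0.0375) and Dlst (-1.23, adjusted p = 0.0307), subunits of the oxoglutarate complex, and Bckdha of the branched-chain complex (-1.46, adjusted p = 0.0107). None was called in either male comparison, where the medians were -0.76 in Bmp2+/+ males and -0.98 in ∆UCS males.

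Of 6 genes that make or attach lipoic acid, the cofactor of Dlat and Pdhx, Mcat was called lower in females (log2 change -0.76, adjusted p = 0.0391). Of 7 genes that supply pyruvate or use it otherwise, the alanine transaminase gene Gpt was called lower in females (-1.21, adjusted p = 0.0452). Of 12 glycolysis genes, the phosphofructokinase gene Pfkl was called lower in females (-1.89, adjusted p = 0.0388). None of these lists had a call in either male comparison. Of the 3 genes of the phosphatases, 0 were called, and Pdp2, a catalytic subunit that reverses the kinases, had a log2 change of -1.22 in females (adjusted p = 0.108).

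Genes linked to Pdk4 and Pdk1 were read the same way. Of 15 fatty acid oxidation genes and PPAR targets, Acadl (-1.21, adjusted p = 0.0482) and Acadvl (-1.17, adjusted p = 0.0464) were called lower in females and Acadvl in ∆UCS males (-1.27, adjusted p = 0.038). They encode the long-chain and very-long-chain acyl-CoA dehydrogenases. Of 8 glucocorticoid targets, Sgk1 was called higher in Bmp2+/+ males (1.53, adjusted p = 0.0276), and the list medians were 0.45 in females, 1.00 in Bmp2+/+ males and 1.05 in ∆UCS males. Of 10 hypoxia targets, 0 were called, with medians of 0.00, -0.17 and 0.16. Of 11 tested regulators of these genes, 0 were called, and the nuclear receptor gene Esrra had a log2 change of -1.68 in females (adjusted p = 0.0573). Under the deposited scaling, Sgk1 was still called and each lower call in these pathway lists was lost, and with all 24 libraries no gene was called in females or in Bmp2+/+ males. Under the deposited scaling the citric acid cycle medians were -0.41 in females and -0.68 in ∆UCS males, and those of fatty acid oxidation -0.67 and -0.72. With all 24 libraries they were -0.72 and -0.999 for the citric acid cycle, and -0.86 and -1.03 for fatty acid oxidation.

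**Figure D5:**
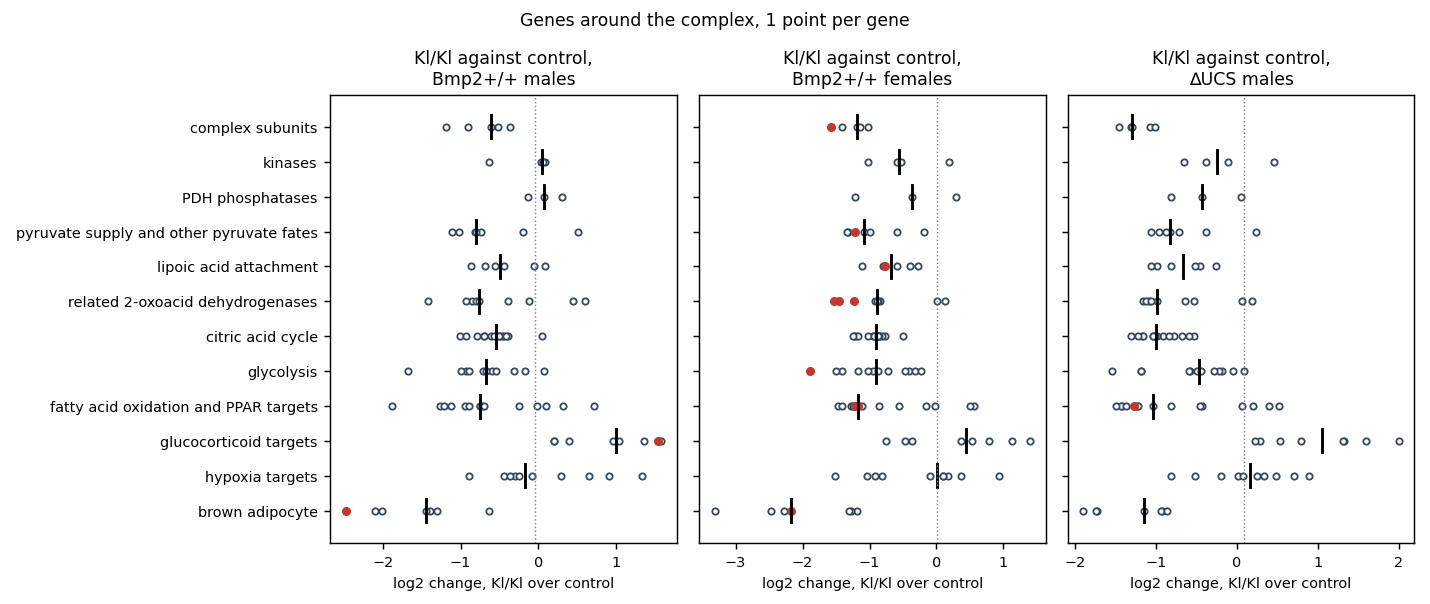
Log2 change (Kl/Kl over control) of each gene in 12 lists, for Bmp2+/+ males, Bmp2+/+ females and ∆UCS males; red points passed an adjusted p of 0.05, black bars are list medians and dotted lines the median of all genes. Among the pathway lists, red points on the lower side are found in females and, for Acadvl, in ∆UCS males, and the citric acid cycle genes have medians of -0.91, -0.54 and -0.999 in females, Bmp2+/+ males and ∆UCS males without a red point.

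The plot of the lists sets their genes beside the members, which it shows at medians of -1.19, -0.61 and -1.29 for the subunits in females, Bmp2+/+ males and ∆UCS males. Since the subunits went together closely and the kinases less so, the sequences before their start sites were read from RefSeq for build GRCm38.p6. The windows ran from 250 bases before to 50 after each start. All 9 members had a window, 11 windows in all, and 32851 windows were searched on both strands for comparison. The 150 bases before the start are printed for the subunit with the widest range (Pdhb), the subunit called in females (Dlat), and Pdk2 and Pdk4, whose sequences hold or lack the same letters. Capitals mark CCAAT or, on the other strand, ATTGG, and CACGTG, which holds the hypoxia letters ACGTG on both strands.
Pdhb, chr14:8172993-8173142, minus strand: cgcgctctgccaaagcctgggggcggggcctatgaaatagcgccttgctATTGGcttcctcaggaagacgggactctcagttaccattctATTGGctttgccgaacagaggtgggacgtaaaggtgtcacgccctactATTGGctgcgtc
Dlat, chr9:50659781-50659930, minus strand: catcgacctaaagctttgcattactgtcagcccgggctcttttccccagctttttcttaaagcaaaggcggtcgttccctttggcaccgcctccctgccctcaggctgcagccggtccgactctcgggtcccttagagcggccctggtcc
Pdk2, chr11:95041372-95041521, minus strand: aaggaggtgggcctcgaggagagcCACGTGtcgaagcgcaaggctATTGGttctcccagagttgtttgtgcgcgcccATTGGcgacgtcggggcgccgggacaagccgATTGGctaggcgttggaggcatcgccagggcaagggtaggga
Pdk4, chr6:5496279-5496428, minus strand: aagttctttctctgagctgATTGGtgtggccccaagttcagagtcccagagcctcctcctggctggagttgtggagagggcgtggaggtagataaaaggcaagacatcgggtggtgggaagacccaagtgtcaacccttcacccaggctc

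The Pdhb and Pdk2 sequences each hold ATTGG 3 times and that of Pdk4 holds it once, while that of Dlat holds none. CCAAT, a motif added after these sequences had been read, was found in windows of 6 members (Pdhb, Dld, Pdhx, Pdk2, Pdk3 and Pdk4) and in 37.4% of all windows. The hypoxia letters were found in those of Pdk2, Pdhb and Pdk3 and in 19.6% of all windows. The NRF1 motif, GCGCA and GCGC with any 1 base between them, was found in 1 member, Dld, and in 4.60% of all windows. It lies after the start, in the 30 bases below, where capitals mark it.
Dld, chr12:31351422-31351451, minus strand: cggcgatgacgtatatgttGCGCAGGCGCa

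The PPAR repeat, AGGTCA followed by any 1 base and AGGTCA again (0.04% of all windows), the ERR motif TCAAGGTCA (0.423%), the FOXO motif GTAAACA (3.65%) and the glucocorticoid motif, GNACA and TGTNC with any 3 bases between them (0.475%), were found in 0 of the 11 member windows. These letters are then not in these windows, and sites farther away were not searched.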

How the data were processed

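The authors deposited TPM for 24 libraries, and the submitters' processing notes name Partek and mm39. No aligner, annotation release or strand setting is named in those notes. Every deposited TPM column adds up to 482073 and has no 0, since 0.0001 read had been added to each gene. Reads were estimated from that constant: of 256602 values between 0.5 and 20 reads, 73.0% lay within 0.05 of a whole number. All 24 columns were used, 0 were unused, and 0 pairs of libraries were identical.

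Here TPM was rescaled by median-of-ratios size factors (0.675 to 1.53) over 12002 nuclear genes. The filter kept 21248 genes, each reaching 0.1 TPM in 4 or more libraries. Their log2(scaled TPM + 0.1) was fitted with limma 3.58.1 (lmFit, trended eBayes; R 4.3.3) on 6 groups and the library set. On this scale low genes appear to change less than they do. P-values were two-sided, with Benjamini-Hochberg adjustment over all genes tested and a threshold of 0.05. They measure the spread between libraries, which the labels number as replicates without naming animals. The fit was also run on simulated data, whose outcome is not given here and lends the p-values no support. Brown adipocyte relations used 100000 permutations within groups (Python 3.11.15, numpy 2.4.6, pandas 2.3.3, scipy 1.17.1, matplotlib 3.10.9).

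The members, gene lists and settings were chosen with earlier results of these data known. Named from each pathway list were the called genes, at most 4 by size, or else at most 2 by size, and for each member the 3 genes of highest correlation. Near-identical or overlapping genes may share reads. Alternatives were all 24 libraries, the deposited scaling, both together, pseudocounts of 1 and 0.01, a filter at 1 TPM or none, other covariates, only the groups compared, voom on estimated reads, and each library left out in turn. Promoter sequences are RefSeq's on GRCm38.p6, and no coordinate was carried between builds.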

Additional observations from a re-analysis of the deposited data

How the results depend on the processing

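The count of members called in females was 1 and became 0 with all 24 libraries as labelled, with the deposited scaling, with both together, with no filter on low values, with age added, with the replicate block and with only the groups compared. The adjusted p of Dlat by limma was then 0.348, 0.0886, 0.384, 0.0507, 0.0614, 0.0714 and 0.0763, with a log2 change of -1.58 to -0.73, and the cause was not tested. Without 1 library of the groups compared, the count ran from 0 to 1: it was 0 without female Kl/Kl replicate 1 or 3 or control replicate 2, 3 or 4, with the adjusted p of Dlat at 0.0139 to 0.185 over all 7 such fits and its log2 change at -1.86 to -1.43. It was also 0 without any 1 of 8 male libraries outside that comparison (∆UCS control replicates 1 to 4, ∆UCS Kl/Kl replicates 2 and 3, and Bmp2+/+ control replicates 1 and 4), where the log2 change stayed at -1.58 and the adjusted p ran up to 0.0595. In ∆UCS males the count ran from 0 to 1, and was 1 without Kl/Kl replicate 4, where Dlat had a log2 change of -1.60 (adjusted p = 0.0312) and Pdhb one of -1.99 (adjusted p = 0.0514).

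Over the 5 subunits, the log2 change was below 0 in 65 of 65 values from other settings and 35 of 35 without 1 library in females, in 65 of 65 and 40 of 40 in ∆UCS males, and in 67 of 70 and 32 of 35 in Bmp2+/+ males. These values reuse the same aortas and are not independent of each other. Over all 9 members and 7 comparisons, 814 of 821 values in other settings and 588 of 594 without 1 library kept their side of the threshold. The sign differed from the main value in 41 and 45 of them, all of values that were not called. Among the subunits in the 3 Kl/Kl comparisons these were Pdha1, Dld and Pdhx in Bmp2+/+ males, at 0.52, 0.26 and 0.03 within set 1 alone and without Kl/Kl replicate 4. Of all genes, 425 were called higher and 164 lower in females, 235 and 35 in Bmp2+/+ males and 126 and 55 in ∆UCS males. Without 1 library of the groups compared, these ran from 216 to 574 and 17 to 507 in females (lowest without Kl/Kl replicate 3, highest without control replicate 1), from 76 to 307 and 5 to 324 in Bmp2+/+ males (without Kl/Kl replicate 4 and replicate 2), and from 60 to 219 and 9 to 264 in ∆UCS males (without control replicate 3 and Kl/Kl replicate 4). With all 24 libraries 0 were called in females and Bmp2+/+ males and 4 in ∆UCS males. The deposited scaling gave 515 and 5, 142 and 7, and 99 and 13. In females a filter at 1 TPM gave 203 and 159. In Bmp2+/+ males only the groups compared gave 50 and 3, set 1 alone 43 and 1, and set 2 alone 62 and 7. In ∆UCS males only the groups compared gave 55 and 22, set 1 alone 73 and 29, and a pseudocount of 1 gave 76 and 43.

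Libraries sharing a replicate number were not more alike by median r. Over 50 such pairs, the deviations from group means had a median r of 0.0006 (-0.40 to 0.47), against 0.028 for other pairs. Of 22 libraries, 8 were nearest to their own number. Likeness of libraries cannot show how the animals were bred or handled, so a pairing by number is not excluded. Other pairs are possible, since female Kl/Kl replicate 4 and control replicate 1 were both 50 days old. Female Kl/Kl replicate 3 and control replicate 2 were both 53 days old. Pairing by age or by library name was not tested, and the replicate block does not follow it. With the replicate block 0 members were called, Dlat in females had a log2 change of -1.49 (adjusted p = 0.0714), and 333 higher and 65 lower genes were called in females, 185 and 27 in Bmp2+/+ males and 113 and 38 in ∆UCS males. Depth limits Pdk3 most, with 86 to 775 estimated reads. With 3 or 4 aortas a group, an interval such as -1.23 to 1.01 for Pdk4 in ∆UCS males leaves a change of that size undetected.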
